A study of Mus musculus with 8 samples.

Results

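Nascent RNA of 36 genes of central carbon metabolism was followed in mouse macrophages during the first 180 min of exposure to lipopolysaccharide (LPS), the outer-membrane component of Gram-negative bacteria that Toll-like receptor 4 senses. The genes were taken by symbol from a list covering glucose uptake and glycolysis, lactate export and pyruvate control, the pentose phosphate pathway and the tricarboxylic acid (TCA) cycle. All 36 were among the 22753 genes of the deposited table. Macrophages were grown from bone marrow of male C57BL/6 mice aged 8 weeks and kept in serum-free macrophage medium. They were left untreated (0 min) or given LPS at 100 ng/ml for 20, 60 or 180 min, with 2 biological replicates per time point, 8 libraries in all. The assay was global run-on sequencing (GRO-seq), in which engaged RNA polymerases extend their transcripts in isolated nuclei with a bromouridine label and the labelled RNA is captured and sequenced. Its readout is therefore the amount of RNA under synthesis on a gene, given here as FPKM, fragments per kilobase of gene span and per M reads, M being the prefix mega. How many mice or separate cultures stood behind a replicate is not given in the labels, and because the material is a bulk culture, fewer cells of a type and less RNA per cell cannot be told apart.

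Glycolysis splits glucose into pyruvate. Transporters bring glucose in, hexokinases trap it as glucose 6-phosphate, phosphofructokinase 1 commits it to breakdown, and the lower part of the pathway harvests ATP and NADH. Pyruvate then either becomes lactate, which leaves through monocarboxylate transporters, or enters mitochondria as acetyl-CoA through pyruvate dehydrogenase, which the kinase Pdk1 switches off. The pentose phosphate pathway branches from glucose 6-phosphate and supplies NADPH and ribose. In macrophages, LPS is known to raise glycolysis and lactate output and to interrupt the TCA cycle at isocitrate and succinate, and the transcription factor HIF-1alpha, encoded by Hif1a, is known to drive many glycolytic genes.

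Depth, recovered from the step size of the FPKM values, was 44.4 to 61.2 M reads in the replicate 1 libraries and 7.96 to 11.1 M reads in the replicate 2 libraries, so the replicate 2 values carry more counting error. Of 9 macrophage markers in the table, none was under 1 FPKM in every library, and their summed level ran from 79.4 to 245 FPKM. Summed levels were 0.572 to 1.52 FPKM for 8 markers of T and NK cells and 0.259 to 0.642 FPKM for 6 of dendritic cells. They were 0.066 to 1.04 FPKM for 6 of stroma, 0 to 0.145 FPKM for 6 of erythroid cells (Hbb-b1 and Hba-a1 at 0) and 2.37 to 11.7 FPKM for 7 of neutrophils. The neutrophil sum was higher in replicate 2 at every time point and its part in the results was not tested. The 5 LPS-induced genes used to check the labels summed to 53.9 and 86.0 FPKM at 0 min and to 949 to 2556 FPKM in the LPS libraries.

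Promoter sequences are shown for 6 members on which the results turn: Pfkfb3 and Hk2, which were higher at 180 min, Hif1a, and Pdk1, Mdh1 and Idh1, which were lower at 60 min. Each is the 250 bases before the RefSeq start site, read 5′ to 3′ on the gene's own strand. Capitals mark matches to ACGTG or GCGTG, the core of the site that hypoxia-inducible factors bind, and to a loose NF-kB motif, GGGA and CC with 4 bases between them, on either strand. Positions count back from the start site, with -1 the last base shown.

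Pfkfb3 (GRCm38.p6, chr2:11502091-11502340, minus strand): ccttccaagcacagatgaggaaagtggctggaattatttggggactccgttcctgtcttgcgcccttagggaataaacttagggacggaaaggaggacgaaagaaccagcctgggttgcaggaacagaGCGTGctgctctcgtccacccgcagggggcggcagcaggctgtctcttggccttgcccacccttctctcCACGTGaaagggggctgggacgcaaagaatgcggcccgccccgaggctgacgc

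Hk2 (GRCm38.p6, chr6:82774455-82774704, minus strand): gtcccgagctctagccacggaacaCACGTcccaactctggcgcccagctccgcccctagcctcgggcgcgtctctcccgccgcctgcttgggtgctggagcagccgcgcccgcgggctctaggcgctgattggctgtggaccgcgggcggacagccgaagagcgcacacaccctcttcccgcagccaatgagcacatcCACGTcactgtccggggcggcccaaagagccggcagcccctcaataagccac

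Hif1a (GRCm38.p6, chr12:73907617-73907866, plus strand): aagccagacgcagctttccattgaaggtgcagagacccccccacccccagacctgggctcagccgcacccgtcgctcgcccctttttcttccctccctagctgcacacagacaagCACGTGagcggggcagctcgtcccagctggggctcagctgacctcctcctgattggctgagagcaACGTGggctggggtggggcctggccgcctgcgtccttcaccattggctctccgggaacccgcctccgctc

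Pdk1 (GRCm38.p6, chr2:71872974-71873223, plus strand): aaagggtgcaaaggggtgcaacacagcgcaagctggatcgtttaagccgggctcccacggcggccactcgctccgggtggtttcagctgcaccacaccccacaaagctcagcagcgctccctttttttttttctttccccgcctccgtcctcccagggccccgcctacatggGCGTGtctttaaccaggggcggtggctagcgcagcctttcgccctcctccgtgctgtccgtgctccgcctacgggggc

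Mdh1 (GRCm38.p6, chr11:21571935-21572184, minus strand): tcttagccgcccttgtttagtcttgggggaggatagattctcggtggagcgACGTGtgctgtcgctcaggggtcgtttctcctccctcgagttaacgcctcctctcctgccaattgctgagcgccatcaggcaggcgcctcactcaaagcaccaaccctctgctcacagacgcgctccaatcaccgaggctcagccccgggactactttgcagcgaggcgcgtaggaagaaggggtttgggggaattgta

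Idh1 (GRCm38.p6, chr1:65179143-65179392, minus strand): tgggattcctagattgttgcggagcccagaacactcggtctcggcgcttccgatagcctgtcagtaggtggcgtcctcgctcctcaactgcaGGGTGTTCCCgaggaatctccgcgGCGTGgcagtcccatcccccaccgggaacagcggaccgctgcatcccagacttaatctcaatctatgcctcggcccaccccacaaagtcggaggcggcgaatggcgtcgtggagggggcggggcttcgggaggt

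All 6 windows held the hypoxia core. In Pfkfb3 it stood at -122 to -118 and again within CACGTG, at -53 to -48. CACGTG is an E-box, which contains the hypoxia core on both strands, and Hif1a held it as well, at -135 to -130. Idh1 held the only NF-kB match among the 6, at -158 to -149. RefSeq promoter entries were found for 35 members, and 30 of them had a start site whose distance to the far end of the gene lay within 100 bases of the deposited gene length. In these 30 windows, ACGTG or GCGTG occurred in 29, set against 57.2% of the 8075 windows of tested genes and 38.6% of all 32851 windows of the same length. The NF-kB motif occurred in 6 of 30 (22.3% of windows of tested genes, 17.6% of all), CACGTG in 5 (8.85% and 6.02%), the cyclic AMP response element TGACGTCA in 3 (2.93% and 1.55%), the AP-1 site TGANTCA in 1 (4.36% and 6.75%) and the GC box GGGCGG in 21 (59.2% and 32.7%). The sets are not alike: members gave 1 window each, chosen by gene length, whereas the background held every start site of a gene. Start sites without the core were left out by that choice for Hk1, Pfkm, Aldoa, Pdk1, Pgd, Pcx and Idh1. The windows of Tpi1 and Cs, also without it, were not used. The windows used included those of Pfkm, Pcx and Idh2, which were not tested. The core occurred in windows of members that were higher and of members that were lower, and a match describes letters, not binding.

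To compare time points, log2(FPKM + 0.1) was fitted with limma across the 8343 genes whose mean over the libraries reached 0.5 FPKM. A gene was called at a Benjamini-Hochberg adjusted p under 0.05. Of the 36 members, 32 passed the filter, and Pfkm, Pcx, Idh2 and Idh3a did not. At 20 min limma called 0 of the 32 members (0.108% of all tested genes were called), 3 members had an unadjusted p under 0.05, and voom on the recovered reads called 0. At 60 min 5 members were called, all lower than at 0 min, where 13.9% of all tested genes were called (5.07% higher, 8.8% lower). At 180 min 3 members were called higher and 5 lower, against a background of 32.3% (8.93% higher, 23.4% lower). Between 20 and 60 min 1 member was called, lower at 60 min (background 5.74%, with 3.46% lower), and 5 were called higher at 180 min than at 60 min (background 7.99%, with 4.08% higher). The 19 calls fell on 11 of the 32 tested members, and 32.3% of all tested genes were called at 180 min alone. As shares of the 32, the counts per comparison were 15.6% at 60 min, close to the background, and 25% at 180 min, below it. They were 3.12% between 20 and 60 min, below the background, and 15.6% between 60 and 180 min, above it. The differences between these shares and the background were not tested.

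Libraries of the same replicate number deviated together. The paired fit, which holds the replicate number as a block, called 25 of the 32 tested members in at least 1 comparison. Over all tested genes it called 65.8% at 180 min alone. It called 1 member at 20 min, lower, where it called 2.98% of all tested genes (2.3% higher, 0.683% lower). At 60 min it called 3 higher and 10 lower, against a background of 39.6% (11.7% higher, 27.9% lower). At 180 min it called 6 higher and 14 lower, against 65.8% (14.2% higher, 51.6% lower). Between 20 and 60 min it called 2 higher and 4 lower (23.9%, with 9.29% higher and 14.6% lower), and between 60 and 180 min 8 higher and 2 lower (37.4%, with 10.5% higher and 26.9% lower). With the block and median-ratio scaling together, paired calls were lost for Pdk1 at 20 min and for Hk1, Hk3 and Pgam1 at 60 min. At 180 min they were lost for Gpi1, Tpi1, Pdk1, G6pdx, Tkt, Pdha1, Ogdh, Sdha, Fh1, Mdh2 and Acly. Higher calls were added for Pfkp and Cs at 60 min and for Pfkl, Gapdh, Pgd, Hif1a and Cs at 180 min. The 180 min calls were then 11 higher and 3 lower. The share of all tested genes called by that fit is not given here. Adjusted p-values below are from the unpaired fit unless the paired fit is named. The median change over all tested genes was -0.20 at 20 min, -0.29 at 60 min and -0.69 at 180 min on the log2(FPKM + 0.1) scale, and that of the 32 members was -0.35, -0.46 and -0.51. Median-ratio scaling, which sets the centre of all tested genes close to 0, gave members' medians of -0.14, -0.15 and 0.20. Under it, 1 member was called higher and 4 lower at 60 min (background 13.4%, with 6.72% higher and 6.63% lower). At 180 min 4 were called higher and 2 lower (background 26.1%, with 13.5% higher and 12.6% lower). Over all tested genes the 180 min calls went from 745 higher and 1951 lower to 1124 higher and 1052 lower with that scaling, and the 60 min calls from 423 and 734 to 561 and 553.

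**Figure D1:**
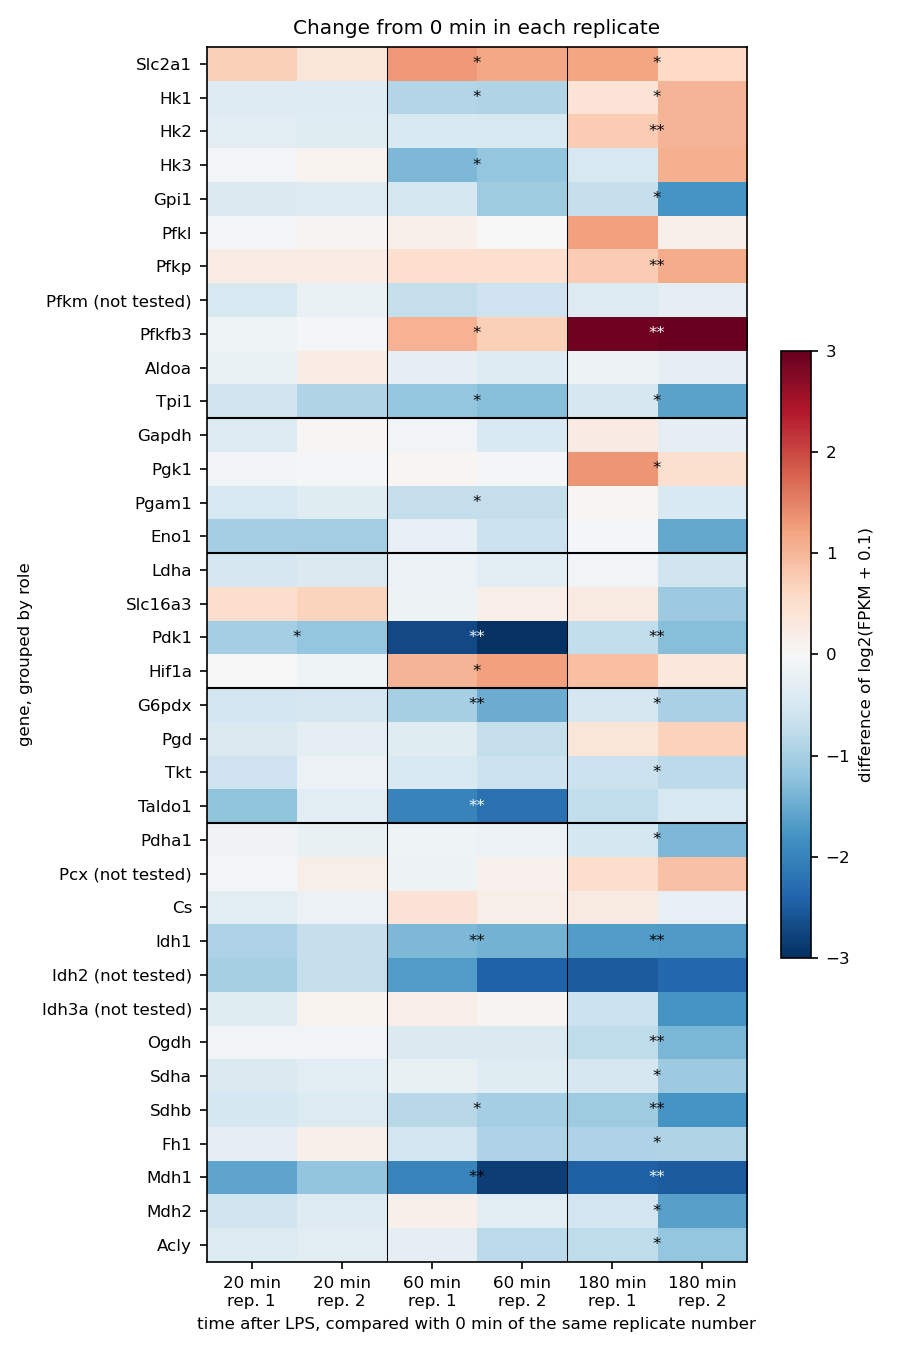
Difference of log2(FPKM + 0.1) from 0 min of the same replicate number for each of the 36 members (vertical axis, grouped by role) at 20, 60 and 180 min (horizontal axis, replicate 1 and 2 side by side); red is higher, blue is lower, and the scale ends at -3 and 3. A pair of stars marks a call in the unpaired and the paired fit, and a single star a call in the paired fit alone; Pfkfb3 is the darkest red at 180 min and Pdk1 the darkest blue at 60 min.

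Glucose entry and the first steps of glycolysis held all 3 members called higher at 180 min in the unpaired fit: Pfkfb3, Hk2 and Pfkp. The 10 tested members of this group had a median change of 0.71 at 180 min, against -0.69 over all tested genes, and none was called lower in the unpaired fit (8.93% of all tested genes were called higher and 23.4% lower). The paired fit called 5 higher and 2 lower at 180 min, the latter Gpi1 and Tpi1 (14.2% and 51.6% of all tested genes). At 60 min the group's median was -0.40 and no member was called in the unpaired fit without scaling. Voom on the recovered reads, also without the block, called Hk1 lower, at -0.99 (adjusted p = 0.0453). With the block 2 were called higher and 3 lower (11.7% and 27.9% over all tested genes).

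Pfkfb3 encodes the kinase that makes fructose 2,6-bisphosphate, the strongest activator of phosphofructokinase 1. Its gene (mm9, chromosome 2, 11393058 to 11423717) stood at 0.989 and 0.623 FPKM at 0 min, 0.904 and 0.600 at 20 min, 2.14 and 1.09 at 60 min, then 8.17 and 5.57 at 180 min. Replicate 1 comes first here and throughout. Both 180 min libraries lay above all other libraries, and the groups at 0 and 20 min overlapped. The rise from 0.806 ± 0.259 to 6.87 ± 1.84 FPKM (SD, n = 2) was 8.52-fold, a log2 change of 2.95 ± 0.43 (SE) with adjusted p = 0.00362. This call held in all 8 fits that each left out 1 library, with adjusted p at most 0.0256 without 0 min replicate 2. The median-ratio value was 3.65 (adjusted p = 0.000602). At 60 min the change was 0.88 ± 0.43 (adjusted p = 0.239, paired fit 0.0109). Without the block, that change was called after median-ratio scaling, at 1.16 (adjusted p = 0.0457), and after quantile normalization, at 1.38 (adjusted p = 0.0311). From 60 to 180 min Pfkfb3 rose by 2.07 ± 0.43 (adjusted p = 0.0346). The last of these was called in 1 of the 8 fits with a library left out and reached 0.154 without 60 min replicate 2.

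Other PFKFB genes had lower levels at 180 min than at 0 min, as the plot of isoenzyme families shows. Pfkfb4 went from 1.72 and 1.03 FPKM at 0 min to 0.484 and 0.234 FPKM at 180 min, and Pfkfb2 from 0.944 and 0.631 FPKM to 0.112 and 0.052 FPKM. The 0 and 180 min libraries did not overlap for either gene; Pfkfb2 was below the filter, and the change of Pfkfb4, -1.70 ± 0.57, had adjusted p = 0.0598 unpaired and 0.00126 paired. Pfkfb1 was between 0.033 and 0.099 FPKM. At 0 min the level of Pfkfb3 overlapped that of Pfkfb2, and at 180 min it was the highest of the 4 in both libraries.

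The members include 3 hexokinases, the enzymes that phosphorylate glucose, and each had its lowest mean at 60 min. Hk2, the inducible and mitochondria-bound form, stood at 1.32 and 1.07 FPKM at 0 min, 1.03 and 0.808 at 20 min, 0.935 and 0.742 at 60 min, then 2.33 and 2.28 at 180 min. Both 180 min libraries were above all others, and the 60 min libraries were below the 0 min ones. Hk2 rose by 1.37 ± 0.27 from 60 to 180 min (adjusted p = 0.0316) and by 0.90 ± 0.27 from 0 to 180 min (adjusted p = 0.0453, or 1.93-fold in the means). Median-ratio scaling gave 1.60 (adjusted p = 0.00681) for 0 to 180 min. Neither Hk2 call held in any of the 8 fits with a library left out, where adjusted p reached 0.222 without 0 min replicate 2 and 0.160 without 60 min replicate 2.

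Hk1, the form found in most tissues, stood at 1.14 and 1.18 FPKM at 0 min, 0.851 and 0.888 at 20 min, 0.576 and 0.590 at 60 min, then 1.55 and 2.50 at 180 min. Its libraries at 60 min were the lowest and those at 180 min the highest, with no overlap between any of the 4 time points. The rise from 60 to 180 min was 1.60 ± 0.30 (adjusted p = 0.0252). It was called in 1 of the 8 fits with a library left out and reached 0.114 without 60 min replicate 2. From 0 to 60 min the change was -0.88 ± 0.30 (adjusted p = 0.0993 unpaired, 0.0182 paired). From 0 to 180 min it was 0.72 ± 0.30 (0.105 unpaired, 0.0273 paired).

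Hk3, the form typical of myeloid cells, was the most transcribed hexokinase per length in every library, at 8.02 and 5.97 FPKM at 0 min, 7.82 and 6.43 at 20 min, 3.08 and 2.64 at 60 min, then 5.70 and 12.6 at 180 min. The 60 min libraries were the lowest, and the 180 min libraries lay on either side of those at 0 min. The 0 to 60 min change of -1.25 ± 0.43 had adjusted p = 0.104 unpaired and 0.0216 paired. The 60 to 180 min change of 1.54 ± 0.43 had 0.0779 and 0.0111.

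**Figure D2:**
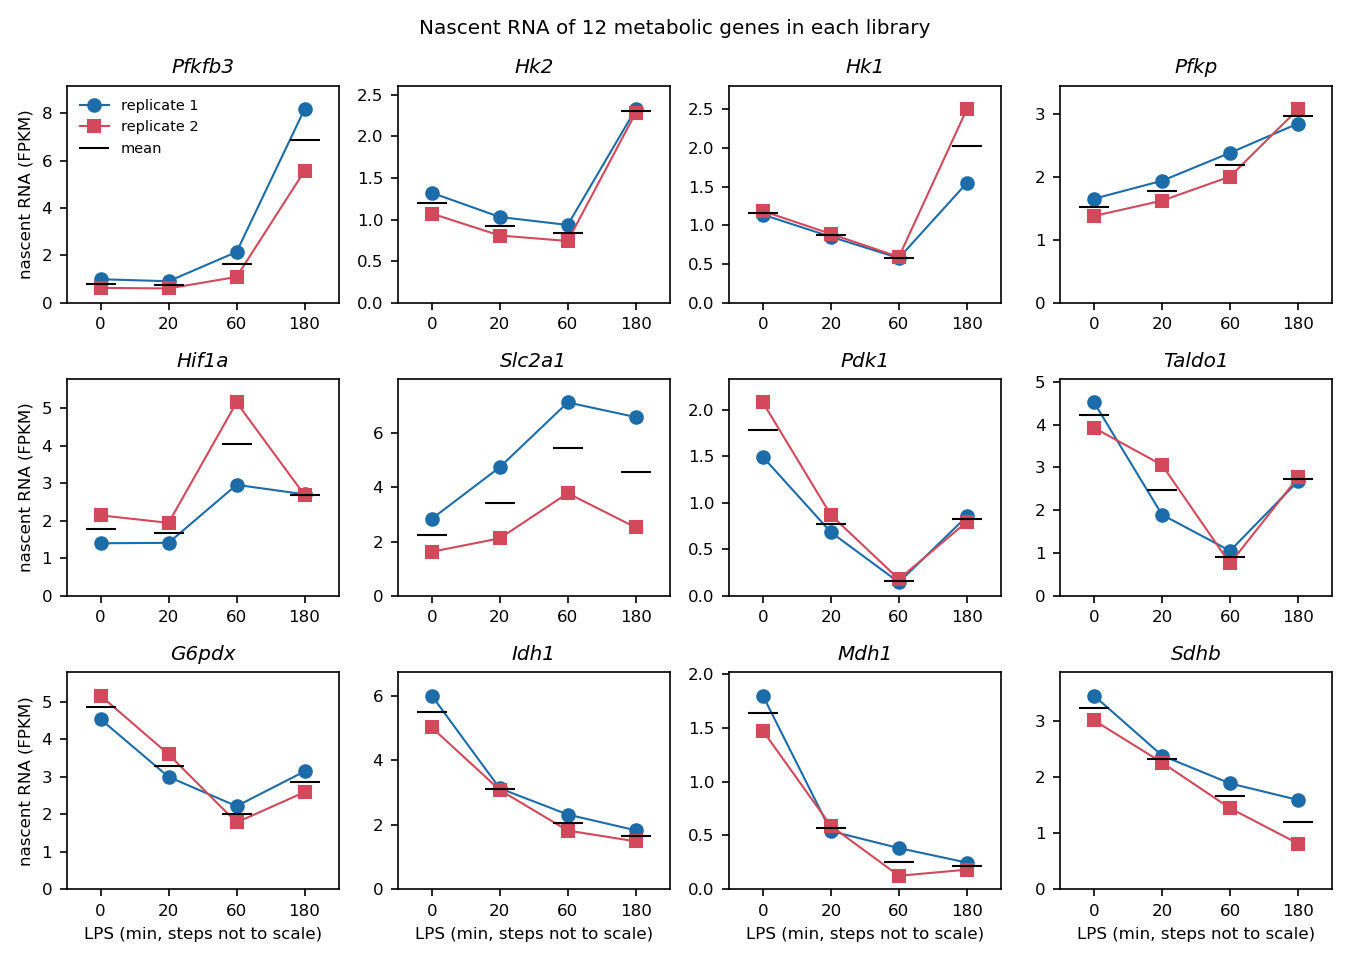
FPKM (vertical axis, from 0) of 12 members in every library against minutes of LPS (horizontal axis, steps not to scale); circles are replicate 1, squares replicate 2, lines join libraries of the same replicate number and short bars are means of 2. Pfkfb3, Hk2 and Hk1 peak at 180 min, Hif1a at 60 min, and Pdk1 and Taldo1 have their lowest values at 60 min, while Idh1, Mdh1 and Sdhb are lowest in mean at 180 min.

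Phosphofructokinase 1 catalyses the committed step, and Pfkp, the platelet type, was its main transcribed form in these cells in both libraries of each time point. Pfkp stood at 1.66 and 1.38 FPKM at 0 min, 1.94 and 1.62 at 20 min, 2.39 and 2.01 at 60 min, then 2.85 and 3.08 at 180 min. The 180 min libraries were above all others and the 0 min libraries did not overlap those at 60 min. Pfkp rose 1.96-fold from 0 to 180 min, a log2 change of 0.93 ± 0.27 (adjusted p = 0.0391, median-ratio 1.64 (adjusted p = 0.0103)). The call was not kept in any fit with a library left out (0.204 without 0 min replicate 2). Pfkl, the liver type, ran from 0.501 to 2.33 FPKM over the 8 libraries and its 180 min libraries, at 2.33 and 0.572 FPKM, were far apart. Its 180 min change was 0.70 ± 0.66 (adjusted p = 0.432 unpaired, 0.0729 paired). It was called at 1.35 (paired adjusted p = 0.00213) with the block and median-ratio scaling, and at 1.58 (adjusted p = 0.0476) with quantile normalization. Pfkm, the muscle type, was below the filter at 0.160 to 0.431 FPKM.

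Slc2a1 encodes the glucose transporter GLUT1 and stood at 2.84 and 1.63 FPKM at 0 min, 4.74 and 2.12 at 20 min, 7.13 and 3.78 at 60 min, then 6.59 and 2.52 at 180 min. Replicate 1 was above replicate 2 at each time, and within each replicate all LPS libraries were above the 0 min library. The change at 60 min was 1.23 ± 0.62 (adjusted p = 0.253 unpaired, 0.00253 paired). At 180 min it was 0.90 ± 0.62 (0.296 unpaired, 0.00712 paired, and 1.61 (adjusted p = 0.0396) after median-ratio scaling). Another transporter gene of the family, Slc2a6 (GLUT6), stood at 3.34 and 1.25 FPKM at 0 min, 23.6 and 6.34 at 20 min, and 40.2 and 25.4 at 180 min. It was above Slc2a1 in every LPS library. It rose by 3.40 ± 0.79 at 60 min (adjusted p = 0.0332) and by 3.90 ± 0.79 at 180 min (adjusted p = 0.0114). With a library left out, the adjusted p reached 0.156 without 0 min replicate 2 at 60 min and 0.0596 without 0 min replicate 2 at 180 min.

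Another 3 members of the upper pathway were not called higher at any time in either fit. Gpi1, which makes fructose 6-phosphate, stood at 2.67 and 1.91 FPKM at 0 min, 1.96 and 1.42 at 20 min, 1.82 and 0.859 at 60 min, then 1.60 and 0.494 at 180 min. The 180 min libraries were below those at 0 min, with a change of -1.23 ± 0.57 (adjusted p = 0.137 unpaired, 0.00564 paired), or -0.56 (paired adjusted p = 0.0616) with the block and median-ratio scaling. Tpi1, triosephosphate isomerase, stood at 7.61 and 20.1 FPKM at 0 min, 5.02 and 10.6 at 20 min, 3.37 and 8.22 at 60 min, then 5.35 and 6.51 at 180 min. Replicate 2 was above replicate 1 at each time, the opposite of Slc2a1. Its change at 60 min was -1.22 ± 0.64 (adjusted p = 0.274 unpaired, 0.00904 paired). At 180 min it was -1.06 ± 0.64 (0.239 and 0.0103), or -0.32 (paired adjusted p = 0.338) with the block and median-ratio scaling. Aldoa, aldolase A, ran from 5.27 to 14.3 FPKM with replicate 1 above replicate 2 throughout and was called in neither fit.

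The ATP-yielding lower part of glycolysis, Gapdh, Pgk1, Pgam1 and Eno1, had 0 members called in the unpaired fit at 60 or 180 min (13.9% and 32.3% of all tested genes). Voom on the recovered reads, also without the block, called Pgk1 higher at 180 min, at 1.09 (adjusted p = 0.0473). The paired fit called Pgam1 lower at 60 min and Pgk1 higher at 180 min (27.9% and 14.2% of all tested genes). The median of the 4 genes was -0.36 at 60 min and -0.11 at 180 min. Gapdh, often used as a reference gene, stood at 10.6 and 4.97 FPKM at 0 min, 7.89 and 5.13 at 20 min, 10.00 and 3.61 at 60 min, then 12.5 and 4.07 at 180 min, with replicate 1 above replicate 2 at each time. Its 180 min change was -0.02 ± 0.72 (adjusted p = 0.984 unpaired, 0.952 paired). Pgk1, phosphoglycerate kinase, had a mean of 2.93 ± 1.09 FPKM at 0 min and 5.38 ± 0.219 FPKM at 180 min, a change of 0.91 ± 0.42 (adjusted p = 0.138 unpaired, 0.0132 paired). Pgam1, phosphoglycerate mutase, had 3.68 ± 1.66 FPKM at 0 min and 2.20 ± 1.01 FPKM at 60 min, a change of -0.71 ± 0.62 (0.519 unpaired, 0.0336 paired). Eno1 overlapped the gene model Eno1b on the same strand over 98.9% of its span, so its 1.69 to 5.04 FPKM cannot be assigned to either. Of 6 other tested glycolysis and glucose transport genes, 1 was called higher and 1 lower at 60 min, Slc2a6 and Pkm (5.07% and 8.8% of all tested genes). Pkm, pyruvate kinase, which ends the pathway, fell from 8.98 ± 2.78 to 2.20 ± 1.30 FPKM, a log2 change of -2.07 ± 0.52 (adjusted p = 0.0429, reaching 0.209 without 0 min replicate 1).

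**Figure D3:**
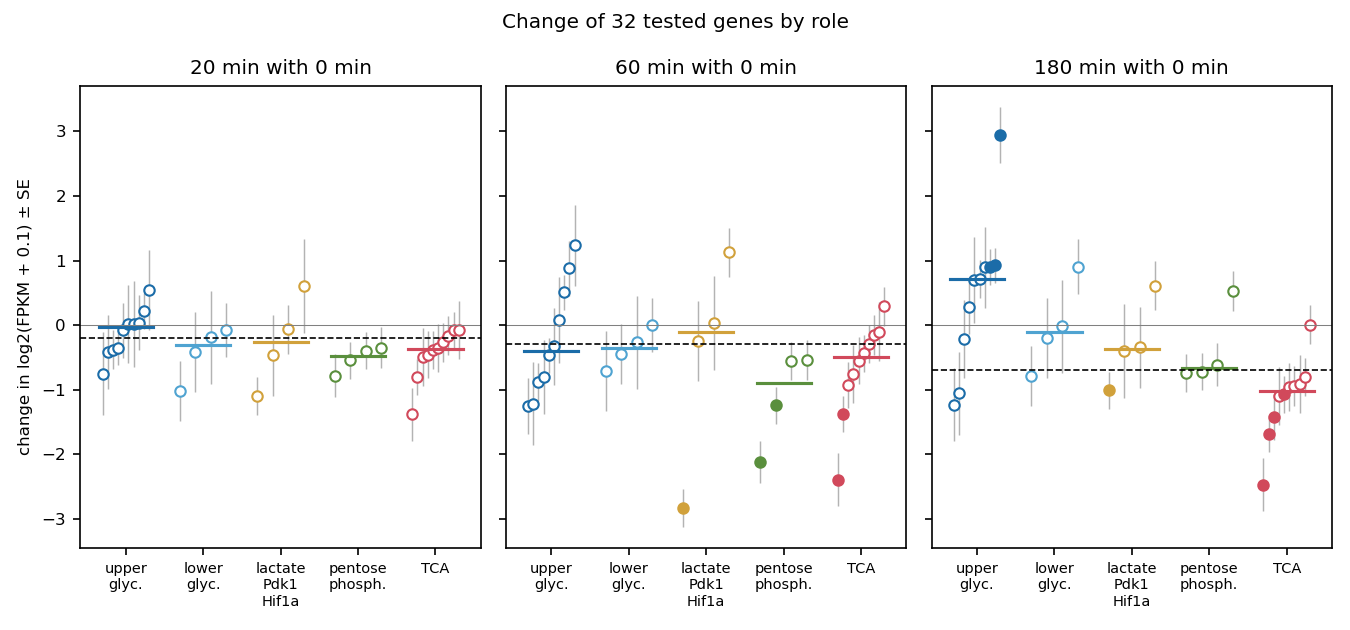
Log2 change with its SE (vertical axis, log2(FPKM + 0.1) scale) of the 32 tested members by role (horizontal axis) at 20, 60 and 180 min against 0 min; filled points were called in the unpaired fit, coloured bars are role medians and the dashed line is the median of all 8343 tested genes. At 180 min the upper glycolysis bar lies at 0.71 and the TCA bar at -1.02, on either side of the dashed line at -0.69.

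Among the 4 members of lactate, pyruvate control and the hypoxia factor, Pdk1 was the only one called in the unpaired fit. Pdk1 phosphorylates and inactivates pyruvate dehydrogenase and is a known target of HIF-1alpha. The gene (mm9, chromosome 2, 71711281 to 71741915) stood at 1.49 and 2.08 FPKM at 0 min, 0.683 and 0.868 at 20 min, 0.145 and 0.179 at 60 min, then 0.853 and 0.795 at 180 min. In both replicates the 0 min library was highest and the 60 min library lowest, the 60 min libraries did not overlap any others, and those at 20 and 180 min overlapped. Pdk1 fell 11.0-fold in the means by 60 min, a log2 change of -2.83 ± 0.29 (adjusted p = 0.00276, at most 0.0283 without 0 min replicate 1, called in all 8 such fits). Between 20 and 60 min Pdk1 fell by a log2 change of -1.74 ± 0.29 (adjusted p = 0.0228, reaching 0.193 without 20 min replicate 2, and called in 2 of 8). At 20 min the change of -1.10 ± 0.29 had adjusted p = 0.471 unpaired and 0.0455 paired.

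Pdk1 then rose by 1.82 ± 0.29 from 60 to 180 min (adjusted p = 0.0157, reaching 0.0847 without 180 min replicate 2, called in 5 of 8). At 180 min it was still lower than at 0 min by 1.01 ± 0.29 (adjusted p = 0.0370). This call was lost after median-ratio scaling, at -0.33 (adjusted p = 0.557), and in each fit with a library left out (0.212 without 0 min replicate 2). The other kinases of the family were transcribed less. Pdk2 went from 0.528 and 0.231 FPKM at 0 min to 0.045 and 0.018 at 60 min, then 0.036 and 0 at 180 min. Pdk3 was between 0.015 and 0.216 FPKM, and Pdk4 was at most 0.010 FPKM. Pdk3 shared with Pdk1 a lowest mean at 60 min, whereas the mean of Pdk2 was lowest at 180 min.

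Hif1a stood at 1.40 and 2.14 FPKM at 0 min, 1.41 and 1.94 at 20 min, 2.96 and 5.15 at 60 min, then 2.70 and 2.68 at 180 min. The 60 min libraries were above those at 0 and 20 min, and replicate 2 was above replicate 1 until 60 min but not at 180 min. The 60 min change was 1.13 ± 0.38 (adjusted p = 0.0999 unpaired, 0.00593 paired), or 1.22 (adjusted p = 0.0366) with voom on the recovered reads. From 20 to 60 min it was 1.19 ± 0.38 (0.142 and 0.00761). At 60 min the mean of Hif1a was at its highest and that of Pdk1 at its lowest, and a relation between them was not tested.

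Ldha, the lactate dehydrogenase subunit that favours lactate, stood at 6.63 and 3.55 FPKM at 0 min, 4.63 and 2.61 at 20 min, 5.84 and 2.84 at 60 min, then 6.24 and 2.30 at 180 min. Replicate 1 was above replicate 2 at each time, by more than any difference between times within a replicate. Its changes at 60 and 180 min were -0.25 ± 0.62 and -0.35 ± 0.62, with adjusted p = 0.853 and 0.681 unpaired and 0.412 and 0.194 paired. Slc16a3, the lactate exporter MCT4, stood at 2.54 and 1.35 FPKM at 0 min, 3.72 and 2.22 at 20 min, 2.29 and 1.56 at 60 min, then 3.10 and 0.585 at 180 min. Its 180 min libraries parted, with replicate 1 above its 0 min library and replicate 2 below, and the 180 min change was -0.40 ± 0.73 (adjusted p = 0.685 unpaired, 0.364 paired).

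**Figure D4:**
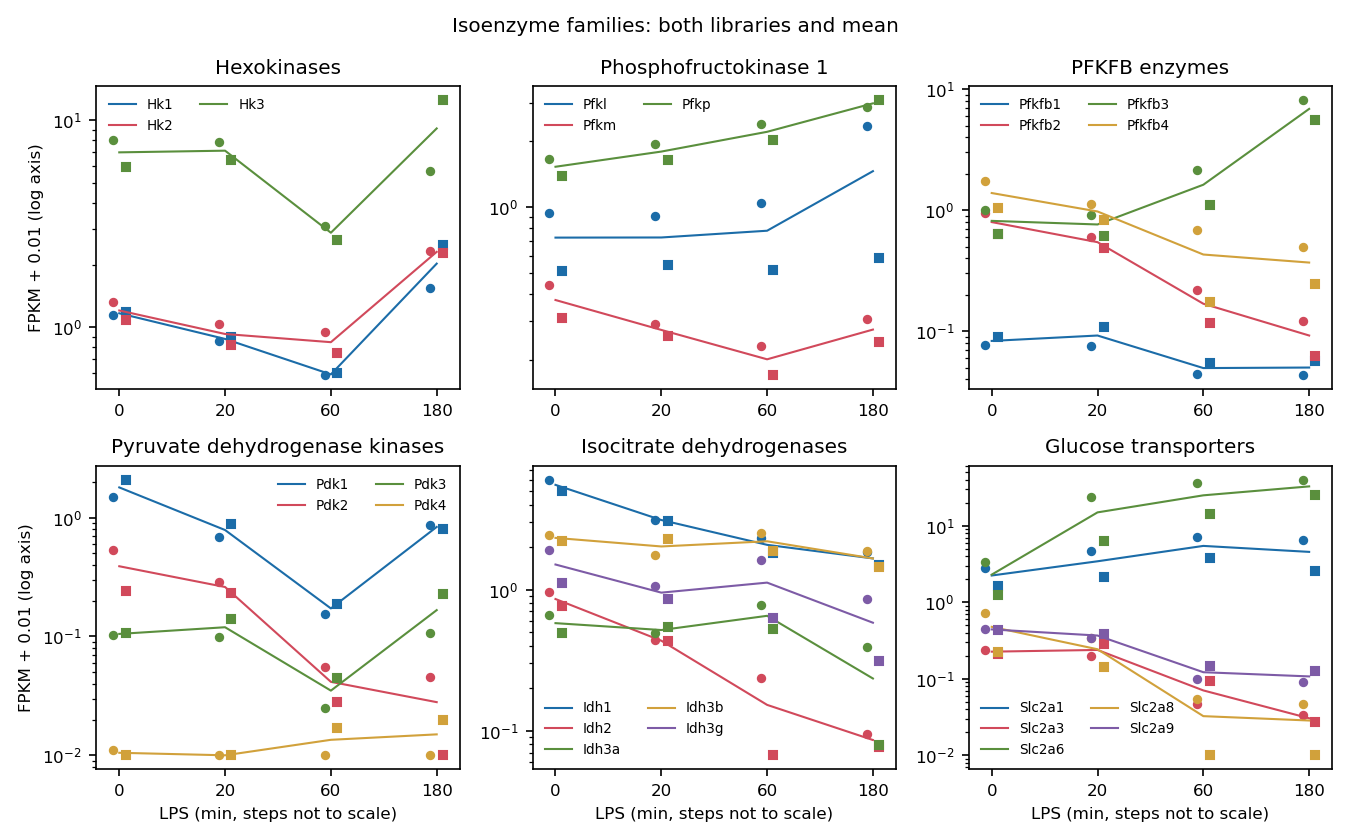
FPKM + 0.01 on a log axis (vertical) against minutes of LPS (horizontal, steps not to scale) for hexokinases, phosphofructokinase 1, PFKFB enzymes, pyruvate dehydrogenase kinases, isocitrate dehydrogenases and glucose transporters; circles are replicate 1, squares replicate 2 and lines join the means. Within families the genes part: Pfkfb3 ends highest while Pfkfb2 and Pfkfb4 end below their 0 min values, and Idh2 ends lowest in mean of the isocitrate dehydrogenases.

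In the pentose phosphate pathway, both called members were lower at 60 min: G6pdx, the NADPH-making entry enzyme, and Taldo1, transaldolase of the non-oxidative branch. At that time 8.8% of all tested genes were called lower. In all 4 members both 60 min libraries lay below both 0 min libraries, as they did in 36.7% of all tested genes. The 4 members had a median of -0.90 against -0.29 over all tested genes. Taldo1 stood at 4.52 and 3.92 FPKM at 0 min, 1.90 and 3.06 at 20 min, 1.05 and 0.756 at 60 min, then 2.68 and 2.76 at 180 min. Its 60 min libraries were below all others and those at 180 min lay between 60 and 0 min. Taldo1 fell 4.67-fold by 60 min, a log2 change of -2.12 ± 0.33 (adjusted p = 0.00906, reaching 0.0695 without 0 min replicate 1, called in 5 of 8). It rose by 1.51 ± 0.33 from 60 to 180 min (adjusted p = 0.0399, reaching 0.188 without 60 min replicate 2, called in 0 of 8).

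G6pdx stood at 4.53 and 5.16 FPKM at 0 min, 2.99 and 3.59 at 20 min, 2.21 and 1.78 at 60 min, then 3.14 and 2.58 at 180 min. The libraries fell into the order 0, 20 and then 60 min without overlap, and those at 180 min lay between 60 and 0 min. G6pdx fell by 1.24 ± 0.29 at 60 min on the log2 scale (adjusted p = 0.0326). The call was lost after median-ratio scaling, at -0.92 (adjusted p = 0.109), and held in 2 of 8 fits with a library left out (0.197 without 0 min replicate 2). On its opposite strand Ikbkg overlapped 23.1% of the gene at 1.01 to 2.86 FPKM. No source used here gives strand handling, so reads of the pair cannot be told apart. Pgd, the next NADPH-making enzyme, stood at 8.39 and 9.11 FPKM at 0 min, 6.17 and 7.59 at 20 min, 6.52 and 5.51 at 60 min, then 10.8 and 14.8 at 180 min, with both 180 min libraries highest. Its 60 to 180 min change was 1.06 ± 0.31 (adjusted p = 0.0891 unpaired, 0.00840 paired). Tkt, transketolase, had 5.46 ± 0.0163 FPKM at 0 min and 3.27 ± 0.222 FPKM at 180 min, a change of -0.72 ± 0.29 (adjusted p = 0.0966 unpaired, 0.0206 paired) that became 0.00 (adjusted p = 0.996) after median-ratio scaling.

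In the list of pyruvate entry and the TCA cycle, the unpaired fit called 2 of 10 tested members lower at 60 min (Idh1 and Mdh1) and 4 at 180 min (Idh1, Ogdh, Sdhb and Mdh1), and none higher. Idh1 and Mdh1 encode the cytosolic forms of their enzymes. Over all tested genes 8.8% were called lower at 60 min and 23.4% at 180 min, so lower calls outnumbered higher ones there too. The median at 180 min was -1.02, against -0.69 over all tested genes, and -0.36 after median-ratio scaling, where 2 remained called, Idh1 and Mdh1. With that scaling 12.6% of all tested genes were called lower at 180 min.

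Mdh1, the cytosolic malate dehydrogenase of the malate-aspartate shuttle, had the most negative change of the 10 at 60 and at 180 min. The gene (mm9, chromosome 11, 21456695 to 21471937) stood at 1.80 and 1.47 FPKM at 0 min, 0.540 and 0.589 at 20 min, 0.382 and 0.124 at 60 min, then 0.247 and 0.181 at 180 min. Its 0 min libraries were above all others, and those at 60 and 180 min overlapped. In replicate 2 the values at 60 and 180 min rested on 21 and 22 reads. The fall to 60 min was 6.47-fold, a log2 change of -2.40 ± 0.41 (adjusted p = 0.0125, reaching 0.0905 without 0 min replicate 1, called in 6 of 8). The fall to 180 min was 7.65-fold, -2.47 ± 0.41 (adjusted p = 0.00570, at most 0.0431 without 0 min replicate 1, called in all 8). After median-ratio scaling the 180 min change was -1.87 (adjusted p = 0.00672). Mdh2, the mitochondrial enzyme, stood at 2.79 and 2.44 FPKM at 0 min, 1.80 and 1.85 at 20 min, 3.10 and 1.90 at 60 min, then 1.84 and 0.728 at 180 min. Its 180 min change was -1.10 ± 0.45 (adjusted p = 0.104 unpaired, 0.0120 paired), or -0.41 (paired adjusted p = 0.171) with the block and median-ratio scaling. At 60 min it was -0.10 ± 0.45 (0.926 and 0.822), with the 60 min libraries on either side of 0 min.

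Idh1, the cytosolic NADP-dependent isocitrate dehydrogenase, stood at 6.00 and 5.02 FPKM at 0 min, 3.13 and 3.08 at 20 min, 2.31 and 1.82 at 60 min, then 1.82 and 1.48 at 180 min. Its libraries followed the order of time without overlap between 0, 20 and 60 min, and those at 180 min reached just into the range of 60 min. Idh1 fell 2.67-fold by 60 min (-1.38 ± 0.29, adjusted p = 0.0224, reaching 0.166 without 0 min replicate 1, called in 3 of 8). By 180 min it had fallen 3.33-fold (-1.68 ± 0.29, adjusted p = 0.00610, reaching 0.0507 without 0 min replicate 1, called in 7 of 8; median-ratio -0.96 (adjusted p = 0.0399)).

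Idh2, the mitochondrial NADP-dependent enzyme, was left out by the filter at a mean under 0.5 FPKM. It stood at 0.945 and 0.750 FPKM at 0 min, 0.427 and 0.422 at 20 min, 0.228 and 0.0570 at 60 min, then 0.0850 and 0.0670 at 180 min. Each later time point was below the one before except that the 180 min values overlapped those at 60 min. In replicate 2 the 60 and 180 min values rested on 13 and 11 reads. In the alternative with no filter, its change was -2.05 ± 0.40 (adjusted p = 0.0301) at 60 min and -2.42 ± 0.40 (adjusted p = 0.0108) at 180 min. Idh3a, a subunit of the NAD-dependent enzyme of the cycle, was also below the filter, at 0.069 to 0.769 FPKM. The other subunits, Idh3b and Idh3g, had 1.44 to 2.53 FPKM and 0.301 to 1.89 FPKM. Pcx, pyruvate carboxylase, was below the filter at 0.021 to 0.123 FPKM with both 180 min libraries highest, and without the filter its 180 min change was 0.70 ± 0.12 (adjusted p = 0.0127).

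Ogdh, a subunit of the oxoglutarate dehydrogenase complex, stood at 1.80 and 1.82 FPKM at 0 min, 1.71 and 1.72 at 20 min, 1.31 and 1.31 at 60 min, then 1.02 and 0.638 at 180 min. The 0 and 20 min libraries stood close together within each time, and the 180 min libraries were below all others. Ogdh fell by 1.07 ± 0.29 at 180 min (adjusted p = 0.0299, reaching 0.138 without 0 min replicate 1, called in 3 of 8). That call was lost after median-ratio scaling, at -0.39 (adjusted p = 0.317). Sdhb, the iron-sulfur subunit of succinate dehydrogenase, stood at 3.45 and 3.01 FPKM at 0 min, 2.38 and 2.26 at 20 min, 1.89 and 1.44 at 60 min, then 1.59 and 0.813 at 180 min. Its libraries at 0 min were the highest and the means went down at each time. Sdhb fell 2.69-fold by 180 min (-1.42 ± 0.36, adjusted p = 0.0250, reaching 0.124 without 0 min replicate 1, called in 3 of 8). It too was lost after median-ratio scaling, at -0.72 (adjusted p = 0.0753).

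Sdha, the flavoprotein subunit of the same enzyme, stood at 1.97 and 2.51 FPKM at 0 min, 1.44 and 1.96 at 20 min, 1.68 and 1.93 at 60 min, then 1.36 and 1.13 at 180 min. The 180 min libraries were below those at 0 min, with a change of -0.80 ± 0.29 (adjusted p = 0.0775 unpaired, 0.0153 paired) and -0.10 (adjusted p = 0.880) after median-ratio scaling. Acly, which turns exported citrate into cytosolic acetyl-CoA, stood at 1.62 and 1.33 FPKM at 0 min, 1.21 and 1.05 at 20 min, 1.30 and 0.722 at 60 min, then 0.910 and 0.545 at 180 min. Its 180 min libraries were below those at 0 min too, with a change of -0.96 ± 0.37 (adjusted p = 0.0871 unpaired, 0.00684 paired; median-ratio -0.29 (adjusted p = 0.417)). Pdha1, of pyruvate dehydrogenase, and Fh1, fumarase, had 180 min changes of -0.94 ± 0.31 and -0.91 ± 0.45 (adjusted p = 0.0538 and 0.153 unpaired, 0.0140 and 0.0158 paired), which quantile normalization turned to 0.05 and 0.20. Cs, citrate synthase, ran from 1.27 to 2.40 FPKM and was the tested TCA member with no negative change at 180 min, at 0.01 ± 0.30 (adjusted p = 0.984 unpaired, 0.977 paired). After median-ratio scaling its 180 min change was 0.71 (adjusted p = 0.225 unpaired, 0.00966 paired). At 60 min the scaled change was 0.60 (adjusted p = 0.363 unpaired, 0.0257 paired).

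Other genes of the same pathways, from lists made by function, gave few further calls. Of 5 tested genes of lactate and pyruvate control, 1 was called higher and 1 lower at 60 min and 2 lower at 180 min, where 5.07%, 8.8% and 23.4% of all tested genes were. Mpc1, a subunit of the mitochondrial pyruvate carrier, went from 1.19 and 1.29 FPKM at 0 min to 2.27 and 3.26 FPKM at 60 min, a rise of 1.07 ± 0.28 (adjusted p = 0.0488). Its partner Mpc2 fell at 180 min by 1.29 ± 0.33 (adjusted p = 0.0252). Pdp1, the phosphatase that reactivates pyruvate dehydrogenase and so opposes Pdk1, fell by 1.23 ± 0.28 at 60 min and 1.90 ± 0.28 at 180 min (adjusted p = 0.0310 and 0.00372). Unlike Pdk1, the means of Pdp1 went down again from 60 to 180 min. Of 3 tested pentose phosphate genes, 2 were called lower at 180 min (23.4% of all tested genes). They were Pgls, the lactonase between G6pdx and Pgd, at -1.53 ± 0.45 (adjusted p = 0.0408) and H6pd, which carries the activities of G6pdx and Pgls in the endoplasmic reticulum, at -1.41 ± 0.44 (adjusted p = 0.0469). With a library left out, the 180 min call of Pdp1 held in all 8 fits (at most 0.0367 without 0 min replicate 1). Adjusted p reached 0.216 without 0 min replicate 1 for Pdp1 at 60 min, 0.256 without 60 min replicate 2 for Mpc1, 0.139 without 0 min replicate 2 for Mpc2, 0.157 without 180 min replicate 2 for Pgls and 0.242 without 0 min replicate 1 for H6pd. Median-ratio scaling also kept the 180 min call of Pdp1, at -1.24 (adjusted p = 0.0176), and lost those of Pdp1 at 60 min, -0.92 (adjusted p = 0.0787), Mpc1, 1.38 (adjusted p = 0.0720), Mpc2, -0.69 (adjusted p = 0.165), Pgls, -0.81 (adjusted p = 0.153), and H6pd, -0.80 (adjusted p = 0.150). With that scaling the pentose phosphate list had 1 higher call at 180 min and 0 lower ones (13.5% and 12.6% of all tested genes). The higher call was Rpe, ribulose-phosphate epimerase, at 1.47 (adjusted p = 0.0224) against 0.77 ± 0.33 unscaled.

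Of 21 other tested TCA and pyruvate dehydrogenase genes, 1 was called lower at 60 min (4.76%, against 8.8% of all tested genes) and 4 at 180 min (19%, against 23.4%). None was called higher at either time. Got1, the cytosolic aspartate aminotransferase that works with Mdh1 in the malate-aspartate shuttle, went from 1.11 ± 0.264 to 0.256 ± 0.107 FPKM at 60 min, a fall of 1.78 ± 0.35 (adjusted p = 0.0189). It had fallen by 1.46 ± 0.35 at 180 min (adjusted p = 0.0210). Glud1, glutamate dehydrogenase, fell by 1.47 ± 0.31 at 180 min (adjusted p = 0.0134), and Aco1, the cytosolic aconitase, by 1.29 ± 0.39 (adjusted p = 0.0437). Slc25a10, the mitochondrial dicarboxylate carrier for malate and succinate, fell by 1.52 ± 0.39 from 0 to 180 min (adjusted p = 0.0257) and by 2.07 ± 0.39 from 60 to 180 min (adjusted p = 0.0263). Of 8 tested genes tied to the hypoxia factor, 1 was called lower at 60 and at 180 min (12.5%, against 8.8% and 23.4% of all tested genes). It was Ankrd37, a known HIF target, at -2.29 ± 0.54 and -2.17 ± 0.54 (adjusted p = 0.0339 and 0.0234). P4ha1, a collagen prolyl hydroxylase and also a known HIF target, rose by 1.55 ± 0.33 from 60 to 180 min (adjusted p = 0.0369), and its lowest mean, like that of Pdk1, was at 60 min. Each of these calls was lost in at least 1 fit with a library left out. Adjusted p reached 0.150 without 0 min replicate 1 for Got1 at 60 min, 0.141 without 0 min replicate 1 for Got1 at 180 min, 0.0831 without 0 min replicate 2 for Glud1 and 0.167 without 0 min replicate 1 for Aco1. It reached 0.118 without 0 min replicate 1 for Slc25a10 from 0 to 180 min and 0.124 without 180 min replicate 2 from 60 to 180 min. It reached 0.176 without 180 min replicate 2 for P4ha1, 0.190 without 0 min replicate 1 for Ankrd37 at 60 min and 0.125 without 0 min replicate 1 at 180 min. Median-ratio scaling kept the calls of Got1 at 60 min, Slc25a10 from 60 to 180 min and Ankrd37. It lost those of Got1 at 180 min, -0.83 (adjusted p = 0.0510), Slc25a10 from 0 to 180 min, -0.82 (adjusted p = 0.0714), Glud1, -0.77 (adjusted p = 0.0964), Aco1, -0.68 (adjusted p = 0.111), and P4ha1, 1.96 (adjusted p = 0.0581). It added higher calls at 180 min for Dld, the shared dehydrogenase subunit of the pyruvate and oxoglutarate complexes, at 1.09 (adjusted p = 0.0187) against 0.38 ± 0.31 unscaled, and for P4ha1, at 1.75 (adjusted p = 0.0393) against 1.03 ± 0.33. Rpe and Dld are named for this change of call, after their values were seen.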

How the data were processed

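Per the labels' protocols, nuclear run-on with BrUTP, capture with an anti-BrU antibody and HiSeq2000 sequencing were used. The authors deposited FPKM per gene and library for 22753 genes on mm9. The submitters' processing notes name CASAVA 1.7, Bowtie2 2.0.5 and HOMER 4.6 and 4.7, without roles. No source used here gives strand handling or which reads made up the totals. Lengths were whole gene spans in 99.3% of genes. Depth was recovered from FPKM steps in genes of up to 4000 bases, where 100% of checked values were whole reads within 0.1 read. By this measure 6 of the 8 libraries were below the sequencing depth in the labels, which is over 50 M reads each. Another 8 columns, of a treatment not analysed here, were not used.

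The 8343 genes whose mean over the libraries reached 0.5 FPKM were tested as log2(FPKM + 0.1) with limma 3.58.1 in R 4.3.3, in a single model of the 4 groups with trended variance. Benjamini-Hochberg adjustment was made per comparison, and the call was an adjusted p under 0.05. SE are unpaired. Fold in the means is the ratio of group mean FPKM. Replicate numbers, from the labels, were tested for pairing: replicate 1 minus replicate 2 correlated at 0.595 to 0.882 between the 6 pairs of time points, so the fit with a replicate block is given beside the unpaired one. Alternatives were other pseudocounts and filters, median-ratio scaling, quantile normalization, the replicate block, voom on recovered reads and leaving out each library. Scripts were tested on simulated data. The members and lists were chosen with earlier results of these data known. All 8-library values are given for members called in the unpaired fit, for those called in the paired fit with no overlap and a change of at least 1, and for 14 chosen by role; from other lists, up to 4 called genes with the largest change are named. Promoters are from RefSeq (GRCm38.p6), and gene coordinates from the deposited table (mm9). A further marker list is not reported here.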

Additional observations from a re-analysis of the deposited data

Results flagged for a closer look

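For 5 members the LPS effect at 180 min differed from that at 60 min, tested as the difference of both time points in limma. The difference, on the log2(FPKM + 0.1) scale, was 2.07 for Pfkfb3, 1.82 for Pdk1, 1.60 for Hk1, 1.51 for Taldo1 and 1.37 for Hk2, each higher at 180 min and each in both replicates. For Hk1, Hk2, Pdk1 and Taldo1 the 60 min values were below 0 min, and for Pfkfb3 both time points were above it. Those of Hk1 and Hk2 at 180 min were above 0 min. Over all tested genes 7.99% were called between 60 and 180 min, 4.08% of them being higher calls as a share of all tested genes.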

How the results depend on the processing

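Counts of members called were higher with the replicate block. So were the shares of all tested genes, at 39.6% against 13.9% at 60 min and 65.8% against 32.3% at 180 min. With the block, member calls numbered 1 at 20 min, 13 at 60 min, 20 at 180 min, 6 between 20 and 60 min and 10 between 60 and 180 min. The block with median-ratio scaling gave 12 at 60 min (5 higher, 7 lower) and 14 at 180 min (11 higher, 3 lower). It gave 7 between 20 and 60 min (4 higher, 3 lower) and 12 between 60 and 180 min (12 higher, 0 lower). A filter at 1 FPKM left 27 members tested and took out Pdk1 and Mdh1. It gave 3 at 60 min, 5 at 180 min and 0 between 20 and 60 min. Between 20 and 60 min a pseudocount of 1 and quantile normalization also gave 0, with 32 members tested. Leaving out 1 library left a group with 1 library and mostly lowered the counts. The share of all tested genes called in those fits is not given. Of the 19 calls, 3 held in all 8 such fits: Pfkfb3 and Mdh1 at 180 min and Pdk1 at 60 min. Among changes called in at least 1 fit, the sign turned for Tkt at 180 min (0.005 with median-ratio scaling, with and without the replicate block) and, with quantile normalization, for Pdha1 (0.051) and Fh1 (0.20) at 180 min; the cause was not tested. Quantile normalization lost the calls of Pdk1 and Ogdh at 180 min. Other settings also ended single calls: a pseudocount of 0.01 and the 1 FPKM filter that of Hk2 at 180 min, no filter those of Pfkfb3 and Taldo1 between 60 and 180 min, and a pseudocount of 1 that of Taldo1. Gapdh at 180 min was called at 0.71 (adjusted p = 0.0324) with the block and median-ratio scaling, against -0.02 ± 0.72 in the unpaired fit. Voom on the recovered reads gave 7 at 60 min (1 higher, 6 lower), 9 at 180 min (4 higher, 5 lower) and 1 lower between 20 and 60 min. It gave 6 higher between 60 and 180 min, and the share of all tested genes it called is not given. Replicate 2 libraries, at 7.96 to 11.1 M reads, limit low genes most.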
